A study of Mus musculus with 5 samples.

Results

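The genes described here build the acid interior of the lysosome and the enzymes that work in it. They are 39 symbols of the deposited gene table, chosen by name, out of 21289 genes in all. Of these, 16 encode subunits or accessory proteins of the vacuolar proton pump (V-ATPase), 16 encode lysosomal hydrolases other than cathepsins or the proteins that protect, activate or present substrate to them, 4 encode lysosomal membrane proteins and 3 are the transcription factors Tfeb, Tfe3 and Mitf of the MiT/TFE family. All 39 were found in the table and all 39 passed the filter on low counts, the lowest single value being 273 counts for Mitf. The libraries are bulk RNA sequencing of CD45+CD64+ cells, labelled macrophages, sorted from hearts of male wild-type C57BL/6JGpt mice on day 7 after experimental myocardial infarction. In the curcumol group (n = 3) the mice had been given curcumol, a sesquiterpene of Curcuma plants, by daily oral gavage at 30 mg/kg over 7 days. The untreated group (n = 2) had the infarction without curcumol, so there is no uninjured heart in the series. The age of the mice and whether a library is 1 animal or a pool are not given, so the p-values reflect the spread among these libraries, which may be technical.

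Levels are CPM, counts divided by library size, scaled by TMM, edgeR's trimmed-mean method that corrects each library for its composition. A log2 fold change is written as its value ± SE, and a negative one means less in the curcumol group. Totals ranged from 39768705 to 43315822 counts, and the untreated libraries detected 12243 and 12915 genes where those given curcumol detected 17078 to 18501. The cells carried the markers of their gate in every library, with Ptprc (CD45) at 260.3 to 456 CPM and Fcgr1 (CD64) at 249 to 373 CPM. The summed level of 10 macrophage markers was 38848 and 38873 CPM without and 30606 to 36174 CPM with curcumol. Lyz2 made up most of that sum (24996 and 26055 against 20527 to 24144 CPM). Of the 10 markers 5 had a negative and 5 a positive log2 fold change, with a median of 0.12. They did not move together, and ran from -1.28 (Cd14) to 1.36 (Mertk). Markers of other cells differed between the groups: 10 neutrophil markers summed to 290.0 and 327 CPM without and 1443 to 3439 CPM with curcumol, 7 fibroblast markers to 29.0 and 36.8 against 131 to 329 CPM, and 5 endothelial markers to 0.583 and 3.84 against 20.2 to 36.4 CPM. No count in either untreated library was found for 1 of the 10 neutrophil markers (Camp), 2 of the 7 fibroblast markers (Lum and Pdgfra) and 3 of the 5 endothelial markers (Cdh5, Tie1 and Egfl7). Others of these lists were present there, such as S100a8 (140 and 202 CPM), Dcn (13.8 and 12.2 CPM) and Pecam1 (0.583 and 0.537 CPM). Smaller sums were those of cardiomyocyte markers (19.3 and 48.9 against 71.4 to 91.6 CPM), B cell markers (36.5 and 54.7 against 66.5 to 98.6 CPM), T and NK cell markers (23.5 and 30.2 against 28.2 to 60.9 CPM), dendritic cell markers (35.8 and 39.4 against 30.8 to 59.8 CPM) and mast cell markers (0 and 0.152 against 1.17 to 13.6 CPM). The part of these cells in the values below was not tested, and in bulk samples fewer cells of a type and less RNA per cell cannot be told apart. Whether the lower number of genes detected in the untreated libraries bears on the absent or low markers was not tested either.

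The V-ATPase is a rotary pump. Its V1 sector, in the cytosol, burns ATP at the A and B subunits and turns a central stalk, and its V0 sector, in the membrane, carries protons on a turning ring of c subunits into the lysosome. The acid activates hydrolases that take apart the glycans, lipids and proteins a macrophage swallows, such as dead cells and debris in an infarct. Rag GTPases bring TFEB and TFE3 briefly to the lysosome, where active mTORC1 phosphorylates them and so keeps them in the cytosol. When mTORC1 is inactive they move to the nucleus, where they bind the CLEAR element, an E-box in the promoters of many genes of pump and hydrolases. That switch works through phosphorylation and cell location, which transcript levels do not show.

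Promoters of 4 members are printed because these genes span the range of what the libraries showed: Gla and Atp6v1d among the lowest with curcumol relative to untreated, Man2b1 the highest and Atp6v1a near no difference. The sequences are RefSeq promoter windows of build GRCm38.p6, each 300 bases long with 250 before the start site and 50 after it, read 5′ to 3′ on the gene's strand, with capitals for the 8-base form TCACGTGA of the E-box.
Gla, chrX:134600956-134601255, minus strand: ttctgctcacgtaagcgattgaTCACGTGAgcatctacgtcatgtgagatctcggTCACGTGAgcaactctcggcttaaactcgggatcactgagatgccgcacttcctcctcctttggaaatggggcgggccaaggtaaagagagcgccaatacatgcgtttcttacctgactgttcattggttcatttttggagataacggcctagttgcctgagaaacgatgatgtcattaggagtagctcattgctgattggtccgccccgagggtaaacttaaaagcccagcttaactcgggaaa
Man2b1, chr8:85083019-85083318, plus strand: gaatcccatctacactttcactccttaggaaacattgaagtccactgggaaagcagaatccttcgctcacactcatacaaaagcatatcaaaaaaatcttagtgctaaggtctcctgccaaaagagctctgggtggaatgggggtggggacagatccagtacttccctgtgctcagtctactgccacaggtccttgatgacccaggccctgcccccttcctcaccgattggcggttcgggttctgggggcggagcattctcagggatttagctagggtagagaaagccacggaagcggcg
Atp6v1a, chr16:44139210-44139509, minus strand: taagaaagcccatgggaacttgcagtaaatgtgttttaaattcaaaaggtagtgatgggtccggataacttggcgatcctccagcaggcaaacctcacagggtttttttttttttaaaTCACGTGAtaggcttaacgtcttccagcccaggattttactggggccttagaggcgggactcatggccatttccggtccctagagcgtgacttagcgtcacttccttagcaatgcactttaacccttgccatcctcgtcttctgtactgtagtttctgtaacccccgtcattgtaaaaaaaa
Atp6v1d, chr12:78861589-78861888, minus strand: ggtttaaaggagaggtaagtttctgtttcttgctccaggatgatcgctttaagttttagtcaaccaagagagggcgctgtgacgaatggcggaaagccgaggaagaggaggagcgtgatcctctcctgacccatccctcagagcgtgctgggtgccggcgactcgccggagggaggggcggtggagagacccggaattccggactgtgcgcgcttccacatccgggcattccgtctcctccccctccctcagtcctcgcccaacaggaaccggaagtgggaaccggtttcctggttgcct
Gla has 2 copies of TCACGTGA, beginning 228 and 195 bases before its start, and Atp6v1a has 1, beginning 132 bases before it, while Man2b1 and Atp6v1d have no CACGTG in this window. Windows were found for 32 of the 39 members, 41 windows in all. TCACGTG, which contains CACGTG and is contained in TCACGTGA, was searched on both strands and occurred in windows of 11 members: Atp6v0b, Atp6v0d1, Atp6v0e, Atp6v1a, Ctsa, Gaa, Gla, Glb1, Lamp1, Mcoln1 and Naglu. That is 26.8% of member windows, beside 3.77% of all 32851 windows of the same length. TCACGTGA occurred in windows of 6 members and in 14.6% of member windows (0.974% of all windows). The log2 fold changes of the 11 members with TCACGTG ran from -0.93 to 0.26 with a median of -0.19, and those of the 21 matched members without it ran from -0.82 to 0.80 with a median of -0.29. A match is a description of the letters and not a measured binding site.

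Curcumol was compared with no treatment to ask how it altered the macrophage transcripts, and the 39 members were read from that test. In edgeR's quasi-likelihood fit, with Benjamini-Hochberg adjustment, none of the 39 came below the threshold of 0.05. Of all 14508 tested genes 0.207% did (0.0689% higher and 0.138% lower), and of the 4398 with an average log2 CPM of at least 5, called abundant here, 0.477% did (0.0682% higher and 0.409% lower). The lowest were Atp6v1c1, Atp6v1d, Man2b1 and Gla, with adjusted p from 0.0644 to 0.0700. At an unadjusted p under 0.05 there were 9 lower and 1 higher members (all tested genes: 6.51% lower and 18.1% higher, abundant genes: 14.8% lower and 9.19% higher). Other tools drew the line elsewhere: DESeq2 called 8 members (and 16.8% of the genes it gave an adjusted p), limma-voom 4 (11.4%) and limma-voom with library weights 0. Testing abundant genes alone in edgeR called 3 members (4.06% of those genes), and testing without a filter called 1 (2.03%). The count also rested on single untreated libraries: 2 members passed without untreated replicate 1 (Atp6v1c1 and Man2b1, among 18.7% of all genes tested) and 3 without untreated replicate 2 (Atp6v1c1, Atp6v1d and Gla, among 22.5%), each against 1 remaining untreated library that is assumed to vary like the others.

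**Figure D1:**
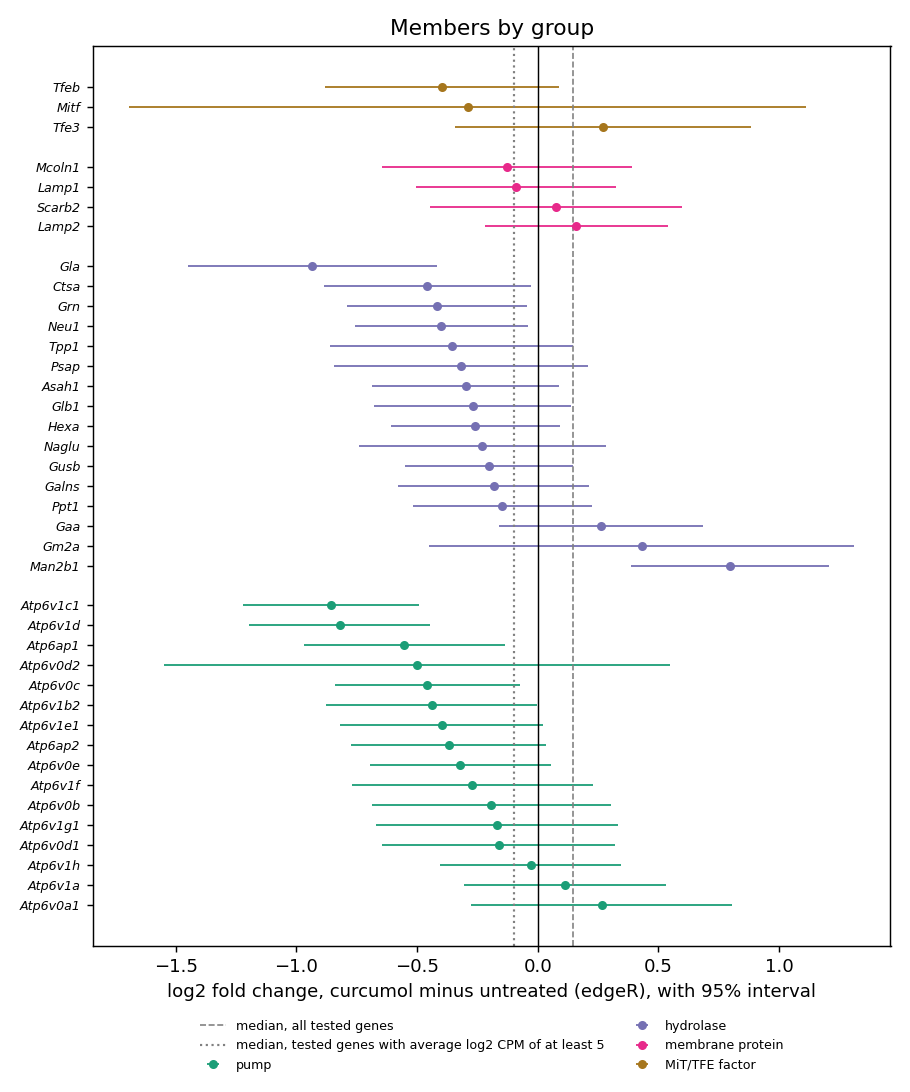
Log2 fold change (curcumol minus untreated, edgeR with TMM scaling) of the 39 members with 95% intervals, coloured by group. The dashed line is the median of all tested genes (0.15) and the dotted line that of tested genes with an average log2 CPM of at least 5 (-0.099). Most pump and hydrolase points lie left of both lines and Man2b1 lies farthest right. With total counts as the scaling the all-gene median is 0.34, and 24 rather than 31 members are negative.

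The members leaned to lower values with curcumol, in the plot of fold changes, by small amounts. Of the 39, 31 had a negative log2 fold change (79.5%, beside 42.9% of all tested genes), and 24 had one when libraries were scaled by total counts, beside 4617 of the 14508 tested genes. Abundance matters for this reading, because 38 of the 39 members have an average log2 CPM of at least 5 and 59.4% of the 4398 tested genes at that level were negative with TMM and 1789 of them with total counts. The curcumol libraries lay below both untreated libraries, without overlap, for 18 members (14.9% of all tested genes and 27.3% of the abundant ones did so). They lay above both for 1 member, Man2b1 (29.5% of all tested and 15.5% of abundant genes). With total counts the numbers were 9 lower and 5 higher members, beside 9.31% lower and 36.6% higher of all tested genes, and 15.2% lower and 26.3% higher of the abundant ones. The 9 were Atp6v0c, Atp6v1c1, Atp6v1d, Atp6v1e1, Atp6ap1, Gla, Neu1, Grn and Ctsa, so that for every other member described below as lower without overlap the statement holds with TMM only. Choosing the scaling thus moved the split of higher against lower members, while the median of all members was negative with both (-0.27 and -0.082).

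The proton pump was the group with the lowest median, by a small margin. Its 16 transcripts had a median log2 fold change of -0.34 with TMM and -0.16 with total counts. All tested genes had 0.15 and 0.34, and the abundant ones -0.099 and 0.089. With TMM the 3 transcription factors had a median of -0.29 and the hydrolases -0.26. Without curcumol replicate 3 the factors were lowest, at -0.46 beside -0.42 for the pump. With TMM 14 of the 16 were negative, and 11 with total counts. The libraries did not overlap, all on the lower side, for 8 pump members with TMM. With total counts they were lower without overlap for 5 and higher for 1, Atp6v1h. Of abundant genes 27.3% were lower and 15.5% higher without overlap with TMM, and 15.2% and 26.3% with total counts. Of all tested genes 14.9% were lower and 29.5% higher with TMM, and 9.31% and 36.6% with total counts. Summed over the 16, pump transcripts made up 0.541% and 0.529% of all counts without curcumol and 0.463%, 0.446% and 0.501% with it. The curcumol shares all lay below the untreated ones. In that sum Atp6ap1 weighs most (1112 and 1176 against 903, 751 and 686 CPM). The shares without it were not tested, so the separation of the sum may rest on that gene.

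**Figure D2:**
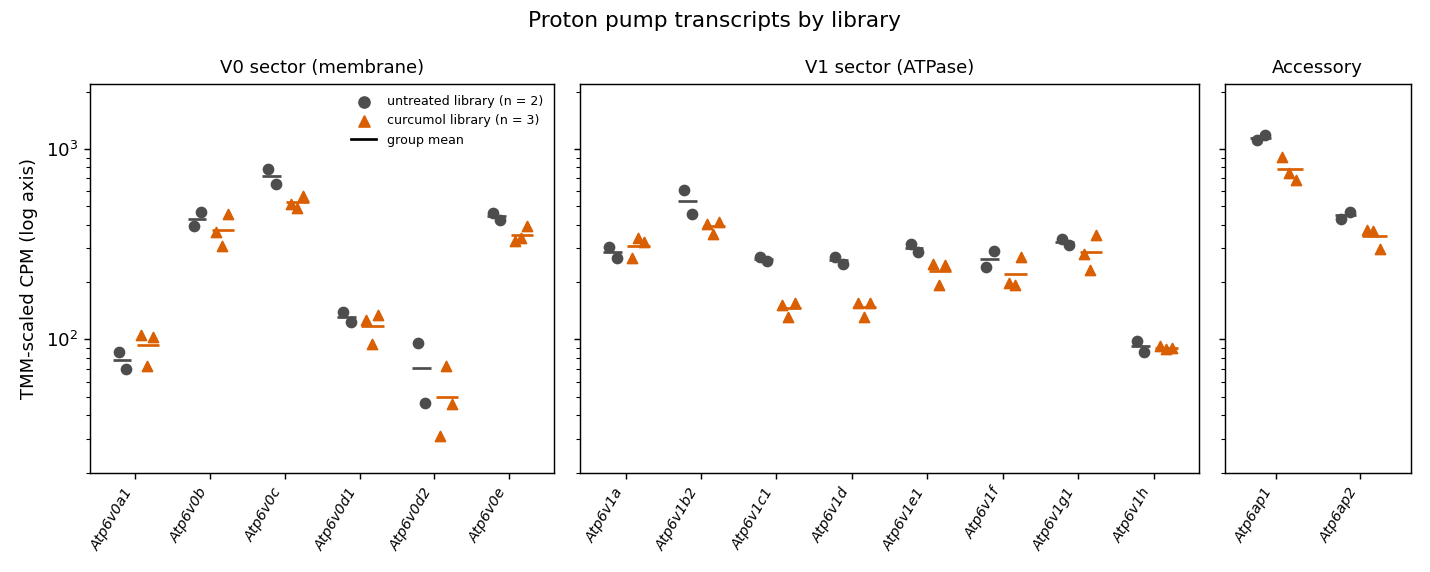
TMM-scaled CPM (log axis) of the 16 pump transcripts in each of the 2 untreated and 3 curcumol libraries, with lines at the group means, for the V0 sector, the V1 sector and the accessory proteins. Atp6v1c1 and Atp6v1d separate the groups most clearly (258 and 271 CPM against 132 to 155 CPM for Atp6v1c1). The transcripts that overlap are Atp6v0a1, Atp6v0b, Atp6v0d1, Atp6v0d2, Atp6v1a, Atp6v1f, Atp6v1g1 and Atp6v1h.

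In the V1 sector, the subunits with the largest differences were not those that burn ATP. Atp6v1c1 (NCBI gene 66335) encodes the C subunit, which clamps the peripheral stalks to V0 and leaves when the pump comes apart. It stood at 271 and 258 CPM without and at 152, 132 and 155 CPM with curcumol (265 ± 8.98, n = 2, and 146 ± 12.7, n = 3). The groups were far apart relative to their spread, 1.81-fold (log2 fold change -0.86 ± 0.15, edgeR adjusted p = 0.0644, which misses the threshold). Atp6v1d (NCBI gene 73834) encodes the D subunit, the axle of the central stalk. Its values were 271 and 249.9 CPM without and 154, 131 and 156 CPM with curcumol (-0.82 ± 0.15, edgeR adjusted p = 0.0651). Atp6v1c1 ran with an adjusted p from 2.59e-06 (DESeq2) to 0.210 (replicate block) over the alternatives, with 0.0469 and 0.0345 without untreated replicate 1 or 2. Atp6v1d ran from 2.32e-05 to 0.228 over the same fits, with 0.0627 and 0.0375 without untreated replicate 1 or 2.

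The A and B subunits of the ATP-burning ring had differences of opposite sign, neither past the threshold. Atp6v1a, the catalytic A subunit, stood at 307 and 268 CPM without and 266, 341 and 325 CPM with curcumol, so that the groups overlapped (0.11 ± 0.17, 95% interval -0.31 to 0.53). Atp6v1b2, the B subunit of most tissues, stood at 608 and 454 CPM and at 404, 357 and 413 CPM (-0.44 ± 0.18, edgeR adjusted p = 0.201). Its curcumol libraries lay below both untreated ones, but the untreated pair was wide and the difference was -0.21 without untreated replicate 1. Of the stalk subunits, Atp6v1e1 was 316 and 287 against 249, 192 and 244 CPM, without overlap, while Atp6v1f and Atp6v1g1 overlapped, with curcumol replicate 3 the highest of its group for both (269 and 352 CPM). Atp6v1h, the subunit that holds back ATP use by free V1, was the flattest pump member at 98.5 and 85.9 against 92.0, 88.6 and 90.4 CPM, with an interval from -0.40 to 0.35.

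Ratios between genes of 1 library do not depend on how libraries are scaled, and these pairs were picked after their values had been seen, so they carry no test. There were 1.13 and 1.07 Atp6v1a counts per Atp6v1d count without curcumol, and 1.73, 2.60 and 2.08 with it. All 3 curcumol libraries thus held more Atp6v1a for each Atp6v1d than both untreated ones. The counts of Atp6v1d and Atp6v1c1, by contrast, stayed in nearly 1 ratio, at 0.998 and 0.967 without and 1.01, 0.998 and 1.01 with curcumol. A ratio shows unequal change and does not say which gene changed.

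The V0 subunits had a median of -0.26 over 6, beside -0.33 over the 8 of V1. Atp6v0c (NCBI gene 11984), which encodes the c subunit of the proton-carrying ring, stood at 779.5 and 658 CPM without and 513, 490.1 and 568 CPM with curcumol (-0.46 ± 0.16, edgeR adjusted p = 0.138). It was the V0 transcript with the most CPM per kilobase of transcript, 607 without and 443 with curcumol. Atp6v0e, a small V0 subunit, was lower without overlap (462 and 422 against 329, 339 and 393 CPM), and Atp6v0b, the other ring subunit, overlapped (393 and 465 against 365, 309 and 453 CPM). Atp6v0a1, an a subunit that forms the path of the protons, leaned the other way at 85.4 and 70.1 against 105, 72.6 and 103 CPM (0.27 ± 0.22). Its alternative Tcirg1, the a3 subunit of macrophage lysosomes and osteoclasts, stood at 596 and 532 against 401, 399 and 505 CPM (-0.37 ± 0.17, edgeR adjusted p = 0.246). There were 6.98 and 7.58 Tcirg1 counts per Atp6v0a1 count without curcumol and 3.82, 5.50 and 4.90 with it, a pair also picked after its values had been seen.

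Atp6v0d2 is an alternative form of the d subunit known from osteoclasts and from macrophages, and Atp6v0d1 is the form of most cells. Atp6v0d2 stood at 95.2 and 46.3 CPM without and 31.2, 72.9 and 45.9 CPM with curcumol, and its spread within each group was as wide as any difference between them (-0.50 ± 0.43, interval -1.55 to 0.55). Its difference was 0.11 without untreated replicate 1 and -0.91 without untreated replicate 2. Atp6v0d1 stood at 140 and 124 against 126, 94.3 and 134 CPM. The ratio of Atp6v0d2 to Atp6v0d1 was 0.682 and 0.374 without and 0.248, 0.774 and 0.343 with curcumol (exact permutation p = 0.8, two-sided, n = 2 and 3, where 0.1 is the smallest possible). The d subunit forms therefore did not separate by treatment, and the mean log2 ratio differed by -0.32, which became 0.11 without untreated replicate 1 and 0.030 without curcumol replicate 1. Of a list of genes known from osteoclasts and multinucleated macrophages, the 3 with the smallest p were also higher in untreated replicate 1 than in replicate 2: the protease Ctsk was 642 and 246 against 82.2, 179 and 105 CPM, the cell fusion gene Ocstamp 24.3 and 14.6 against 3.82, 5.36 and 3.97 CPM, and the receptor Oscar 8.84 and 4.32 against 0.454, 0.818 and 0.611 CPM. Of the 8 tested genes of that list none passed over all genes, 6 were negative and the median was -1.36. Lower without overlap were 4 of them, beside 14.9% of all tested and 27.3% of abundant genes. The 2 positive ones were Mmp9 (0.36 ± 0.59) and Nfatc1 (0.25 ± 0.40). Whether the level of Atp6v0d2 follows the share of such cells was not tested.

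The accessory proteins were both lower without overlap with TMM. Atp6ap1 (Ac45), which guides pump assembly, stood at 1112 and 1176 CPM without and 903, 751 and 686 CPM with curcumol (-0.55 ± 0.17, edgeR adjusted p = 0.107). Atp6ap2, the prorenin receptor and a partner of V0, stood at 431 and 466 against 376, 369 and 297 CPM (-0.37 ± 0.17), and with total counts its libraries overlapped and the difference was -0.18. Of 10 tested genes of pump assembly and regulation none passed, 6 were negative and the median was -0.11. Among them Tmem199, a factor that helps assemble V0 in the endoplasmic reticulum, was 69.1 and 63.3 against 33.0, 31.2 and 35.1 CPM (-1.0 ± 0.18, edgeR adjusted p = 0.0644), Oxr1 leaned higher (0.43 ± 0.19) and Meak7 stood at 0.0253 and 2.87 against 8.87, 13.1 and 11.9 CPM. Of 5 other tested pump subunits none passed. Beside Tcirg1 they included Atp6v0a2, the a2 form known from the Golgi, at 15.1 and 25.6 against 41.5, 53.1 and 38.6 CPM (1.12 ± 0.31, edgeR adjusted p = 0.0839), and Atp6v0e2, with no count in either untreated library and at most 0.613 CPM with curcumol.

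The 16 hydrolases and helper proteins had a median log2 fold change of -0.26, and -0.076 with total counts. With TMM 13 were negative, with total counts 11. The libraries did not overlap for 9 lower members and 1 higher with TMM, and for 4 lower and 2 higher (Man2b1 and Gaa) with total counts. Of abundant genes 27.3% were lower and 15.5% higher in this way with TMM, and 15.2% and 26.3% with total counts. Of all tested genes 14.9% were lower and 29.5% higher with TMM, and 9.31% and 36.6% with total counts. As a share of all counts the group held 1.66% and 1.53% without and 1.42%, 1.55% and 1.51% with curcumol, which overlap. As a sum, the hydrolases were thus not separated when no composition factor was applied. Psap, far lower in curcumol replicate 1 than in the other libraries, is part of that sum, and the shares without it were not tested. Because the pump and hydrolase sums lean on single abundant genes, no contrast between pump and hydrolases is drawn from them. Scaled by TMM, the hydrolase sums did separate, at 18223 and 16272 CPM without and 13921, 14439 and 14139 CPM with curcumol. The difference between the 2 groups of genes was not tested.

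**Figure D3:**
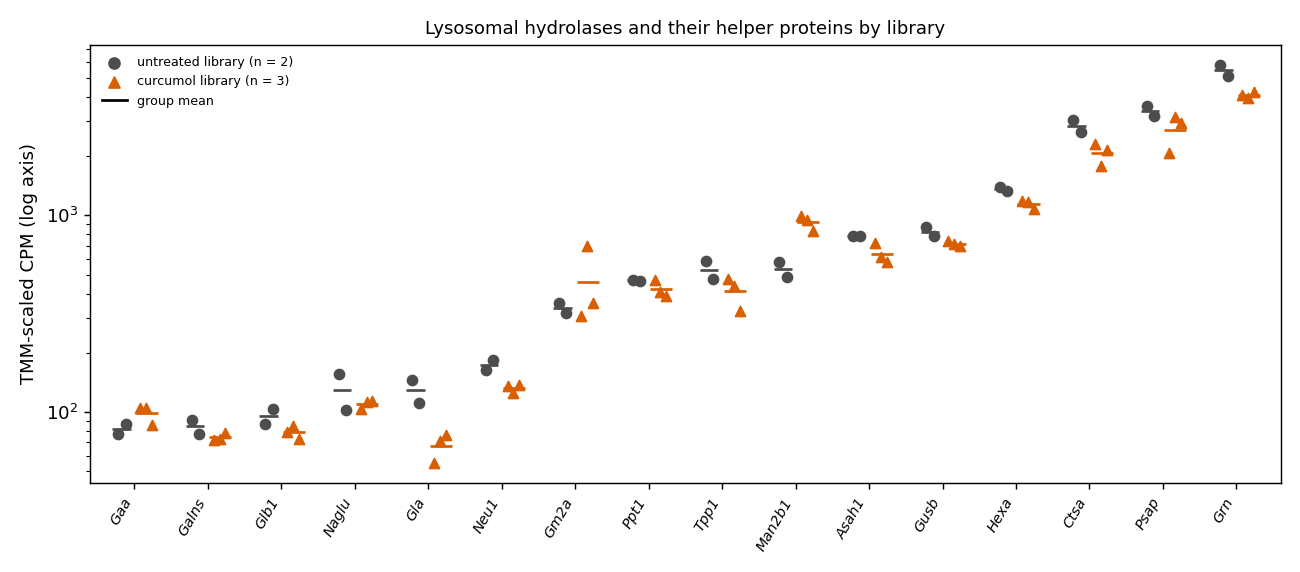
TMM-scaled CPM (log axis) of the 16 hydrolases and helper proteins in each library, ordered by untreated mean, with lines at the group means. Gla lies lower (112 and 146 against 54.9 to 76.2 CPM) and Man2b1 higher (485 and 578 against 831 to 991 CPM) in all curcumol libraries, and Gm2a and Psap each have 1 curcumol library away from the others.

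Glycan-cutting enzymes held both extremes. Gla (NCBI gene 11605), alpha-galactosidase A, removes galactose from globotriaosylceramide and is the gene of Fabry disease. It stood at 146 and 112 CPM without and at 54.9, 71.1 and 76.2 CPM with curcumol, 1.91-fold apart (-0.93 ± 0.21, edgeR adjusted p = 0.0700). The alternatives gave values from 0.00309 (DESeq2) to 0.297 (replicate block), with 0.0896 and 0.0154 without untreated replicate 1 or 2. Man2b1 (NCBI gene 17159), the lysosomal alpha-mannosidase that trims N-glycans, lay on the other side, at 578 and 485 CPM without and 991, 952 and 831 CPM with curcumol, 1.74-fold apart (0.80 ± 0.17, edgeR adjusted p = 0.0660). For it they ran from 0.000220 (DESeq2) to 0.191 (replicate block), with 0.0462 and 0.106 without untreated replicate 1 or 2. Neither passed, and each had groups that did not overlap under TMM or total counts. The ratio of Man2b1 to Gla, picked after the values had been seen, was 3.96 and 4.35 without and 18.03, 13.4 and 10.9 with curcumol. Of their promoters printed above, that of Gla holds the 8-base E-box and that of Man2b1 holds none in its window. Those promoters were chosen by their values, and Atp6v1d, also lower, holds none while Atp6v1a, near no difference, holds 1. Over the 32 matched members the median log2 fold change was -0.24 with TCACGTGA and -0.26 without it.

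The other glycosidases differed less. Hexa, the gene of Tay-Sachs disease, whose product degrades GM2 ganglioside, stood at 1398 and 1335 against 1185, 1170 and 1073 CPM (-0.26 ± 0.14). Gm2a, the protein that lifts GM2 out of the membrane for its breakdown, stood at 357 and 318 against 308, 701 and 357 CPM. It is high in curcumol replicate 2 alone, and its log2 fold change of 0.43 ± 0.37 became -0.017 without that library. Gaa, the acid alpha-glucosidase that degrades glycogen, was 76.9 and 87.0 against 105, 104 and 86.2 CPM (0.26 ± 0.17). Glb1 (beta-galactosidase), Gusb (beta-glucuronidase), Galns and Naglu (enzymes of keratan and heparan sulfate breakdown) had log2 fold changes from -0.27 to -0.18, none below an adjusted p of 0.397. The sign of Naglu rested on untreated replicate 1 (0.11 without it and -0.48 without replicate 2), and that of Galns turned with total counts (0.0092).

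Ctsa, the protective protein that keeps Glb1 and Neu1 in a stable complex, stood at 3047 and 2657 CPM without and 2297, 1778 and 2157 CPM with curcumol (-0.46 ± 0.18, edgeR adjusted p = 0.176). Neu1, the sialidase of that complex, stood at 164 and 184 against 135, 124 and 136 CPM (-0.40 ± 0.15, edgeR adjusted p = 0.160). Both were lower without overlap, and the ratio of Ctsa to Neu1 stayed within 14.3 and 18.6 over the 5 libraries. In the GENCODE M21 annotation 13.5% of the exon bases of Ctsa also lie in exons of Pltp on the other strand, and 8.82% in those of Neurl2. Whether counting used the strand and how it treated shared bases are not settled, so the counts of Ctsa may be too high or too low.

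The remaining genes serve lipid and protein turnover. Grn, progranulin, a lysosomal glycoprotein cut into granulins, stood at 5835 and 5093 CPM without and 4108, 3943 and 4220 CPM with curcumol (-0.42 ± 0.15, edgeR adjusted p = 0.157). Psap, the precursor of the saposins that help sphingolipid hydrolases, was 3579 and 3213 against 2077, 3151 and 2946 CPM, with curcumol replicate 1 far below the rest (-0.32 ± 0.22, and -0.15 without that library). Asah1, acid ceramidase, stood at 784 and 786 against 721, 616 and 577 CPM, lower without overlap with TMM (-0.30 ± 0.16), and with total counts the libraries overlapped and the difference was -0.11. The proteins behind 2 forms of neuronal ceroid lipofuscinosis, the peptidase Tpp1 (584 and 472 against 474, 436 and 328 CPM) and the thioesterase Ppt1 (471 and 464 against 469, 410 and 389 CPM), overlapped. Per kilobase of transcript, Grn was the highest of all 39 members (2335 CPM without and 1748 CPM with curcumol), followed by Psap (1278 and 1025) and Lamp1 (1137 and 1068), which stood in the reverse order with curcumol. The lowest was Mitf at 3.47 and 2.84 CPM per kilobase.

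Of 32 other tested hydrolases and related lysosomal proteins none passed, and the median was -0.10. Without overlap 10 were lower and 5 higher (all tested genes: 14.9% lower and 29.5% higher, abundant genes: 27.3% lower and 15.5% higher). Among the 3 with the smallest p were the phosphatase Acp5 (458 and 309 against 166, 260 and 208 CPM, -0.86 ± 0.25) and Lipa, the acid lipase that frees cholesterol from its esters (622 and 522 against 408, 441 and 398 CPM, -0.46 ± 0.15). Acp5 stands in the osteoclast list too. Gpnmb, a membrane glycoprotein induced by lysosomal stress, overlapped (1848 and 1791 against 976, 1702 and 1884 CPM). New hydrolases reach the lysosome by a mannose 6-phosphate tag, and the 12 tested genes of that route had a median of -0.086 with none past the threshold. Their smallest p was that of M6pr, the cation-dependent receptor of the tag, at 673 and 629 against 426, 429 and 360 CPM (-0.68 ± 0.16, edgeR adjusted p = 0.0689), while the other receptor Igf2r was 9.30 and 7.75 against 8.46, 32.1 and 26.5 CPM and Sort1 was 10.9 and 12.7 against 11.8, 25.4 and 23.9 CPM.

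The lysosomal membrane proteins were the group nearest to no difference, with a median of -0.0079 over 4, and 0.18 with total counts. Lamp1 and Lamp2 form the glycan coat of the inner face of the membrane. Lamp1 stood at 2819 and 2247 CPM without and 2567, 2268 and 2305 CPM with curcumol (-0.090 ± 0.17, interval -0.50 to 0.32), with a difference of 0.099 under total counts. Lamp2, which also serves chaperone-mediated autophagy, stood at 587 and 589 against 701, 688 and 581 CPM (0.16 ± 0.16). Scarb2 (LIMP-2), the carrier of glucocerebrosidase, stood at 168 and 112 against 139, 165 and 138 CPM. Mcoln1, the calcium channel TRPML1, whose release of lysosomal calcium activates TFEB through calcineurin, stood at 65.9 and 96.1 against 81.2, 67.7 and 73.6 CPM. For both, the untreated pair spans the curcumol libraries, and the sign of the difference turned without untreated replicate 2 (-0.17 for Scarb2 and 0.19 for Mcoln1).

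**Figure D4:**
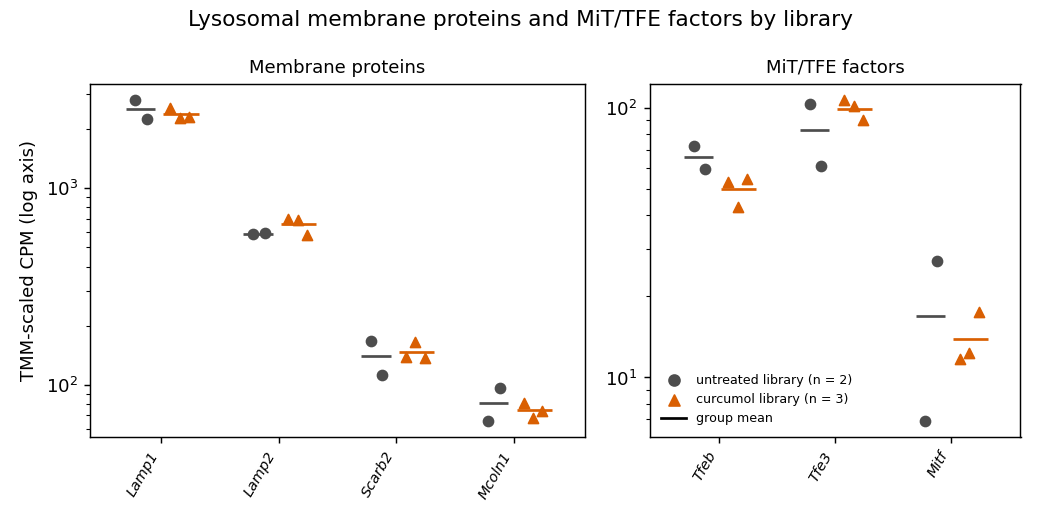
TMM-scaled CPM (log axis, different ranges in the panels) of the 4 lysosomal membrane proteins and the 3 MiT/TFE factors in each library, with lines at the group means. Tfeb alone is lower in all 3 curcumol libraries than in both untreated ones (42.9 to 54.7 against 59.6 and 72.6 CPM; with total counts they overlap), and the untreated values of Mitf lie on both sides of the curcumol libraries.

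Of 26 other tested membrane proteins none passed, and the median was -0.032. Without overlap 6 were lower and 4 higher (all tested genes: 14.9% lower and 29.5% higher, abundant genes: 27.3% lower and 15.5% higher). These 26 too held opposite leaders. Cd68, a heavily glycosylated protein of macrophage lysosomes that stands in the macrophage list as well, was 3670 and 3172 against 2061, 1732 and 2029 CPM (-0.82 ± 0.17, edgeR adjusted p = 0.0659). Clcn7, the chloride-proton exchanger that balances the charge moved by the pump, was 30.0 and 57.5 against 88.7, 115 and 130 CPM (1.35 ± 0.33, edgeR adjusted p = 0.0748). Lmbrd1, of cobalamin export, was 157 and 194 against 129, 111 and 94.6 CPM (-0.65 ± 0.19).

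The 3 transcription factors differed in sign, and none passed the threshold. Tfeb (NCBI gene 21425) stood at 72.6 and 59.6 CPM without and 53.0, 42.9 and 54.7 CPM with curcumol (66.1 ± 9.19 and 50.2 ± 6.39). Its log2 fold change of -0.40 ± 0.20 (interval -0.88 to 0.09, edgeR adjusted p = 0.285) stayed negative under total counts (-0.21), where its libraries overlapped. Tfe3 stood at 104 and 61.2 against 108, 101 and 90.0 CPM (0.27 ± 0.25), and the sign rested on untreated replicate 2, since the difference was -0.041 without it. Mitf, the member of the family known from melanocytes, osteoclasts and mast cells, stood at 6.92 and 27.0 against 11.7, 12.3 and 17.6 CPM. Its difference of -0.29 ± 0.58 was -0.96 without untreated replicate 1 and 1.02 without untreated replicate 2, so no direction can be given. The ratio of Tfe3 to Tfeb, picked after the values had been seen, was 1.43 and 1.03 without and 2.03, 2.36 and 1.64 with curcumol. Per kilobase of transcript, Tfeb (28.2 without and 21.4 with curcumol) and Tfe3 (24.4 and 29.4) had similar CPM, and both were above Tfec, a relative found in macrophages, which was at 14.5 without curcumol. Tfec itself stood at 28.0 and 23.8 against 27.1, 15.2 and 25.9 CPM.

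**Figure D5:**
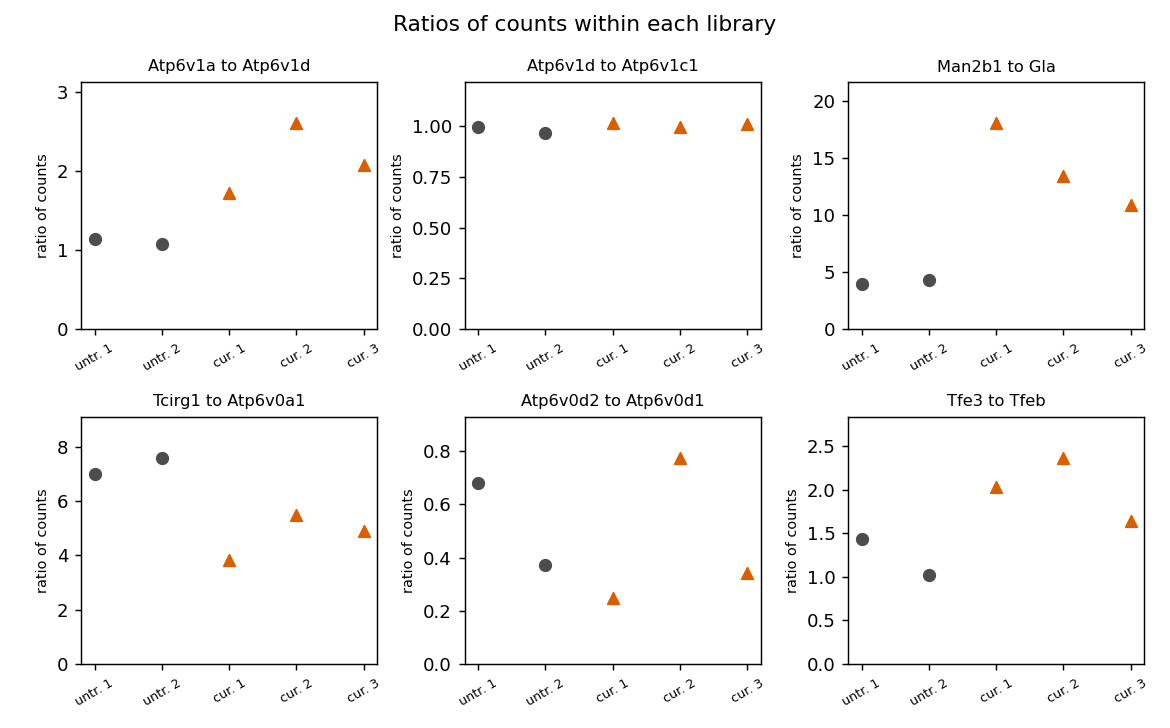
Ratio of the counts of 2 genes within each library, with 1 point per library (grey circles untreated, orange triangles curcumol) and each axis starting at 0. Atp6v1a to Atp6v1d, Man2b1 to Gla and Tfe3 to Tfeb are higher in all 3 curcumol libraries (10.9 to 18.03 against 3.96 and 4.35 for Man2b1 to Gla), Tcirg1 to Atp6v0a1 is lower in all 3, Atp6v1d to Atp6v1c1 stays near 1 and Atp6v0d2 to Atp6v0d1 overlaps.

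The machinery that controls where these factors are in the cell showed no common direction either. Of 26 tested genes of mTORC1, the Rag GTPases, the Ragulator complex, folliculin and calcineurin none passed, 13 were negative and 13 positive, and the median was -0.032. Those with the smallest p were Tsc1, a brake on mTORC1 (8.84 and 9.77 against 17.6, 19.6 and 20.5 CPM, 1.05 ± 0.30), Rheb, the GTPase that switches mTORC1 on (154 and 177 against 123, 98.3 and 116 CPM, -0.56 ± 0.17), and Lamtor3, a Ragulator subunit (126 and 168 against 99.1, 83.8 and 109 CPM, -0.60 ± 0.20), with edgeR adjusted p from 0.0881 to 0.127. Flcn, the folliculin that lets Rag GTPases bind TFEB and TFE3, stood at 143 and 167 against 145, 136 and 150 CPM (-0.11 ± 0.15). Rragd, a Rag gene that MiT/TFE factors induce, was low and far apart between the untreated libraries, at 0 and 4.07 against 0.956, 1.27 and 1.69 CPM.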

How the data were processed

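Gene-level read counts of 5 bulk RNA-seq libraries were used, and the table had no column of another sample. The authors deposited whole-number counts per gene without normalization. Fastp, HISAT2, Bowtie2 and HTSeq are named, per the submitters' processing notes, with no versions. The genome build is not given in the sources used here. The library kit is named in 2 ways in the labels and the design text, so strand use is not settled. Columns were tied to samples by title. Of 21289 genes, 14508 passed filterByExpr (minimum count 10) in edgeR 4.0.16 (R 4.3.3) and were tested by quasi-likelihood with TMM factors, group as the only term, two-sided tests and Benjamini-Hochberg adjustment over all of them (threshold 0.05). SEs come from the fold change and F statistic. The script was tested on simulated data. Every pair of libraries differed by more than sampling noise (chi-square per gene 97.6 to 361). With the totals given above, every member had 273 counts or more in each library, so the error from counting reads is small beside the spread between libraries. How many distinct molecules those reads stand for was not tested.

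CPM per kilobase used the longest coding transcript in GENCODE M21, by symbol. Members, groups and lists were chosen with earlier results of these data known. All members could be named, and of each pathway list the 3 genes with the smallest p, plus set symbols (Tcirg1, Rragd, Flcn, Tfec, Sqstm1, Gpnmb). One gene that this rule names is not reported here. Alternatives were DESeq2 1.42.0, RLE factors, total counts, other filters, limma-voom (limma 3.58.1), a replicate block and leaving out each library.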

Additional observations from a re-analysis of the deposited data

How the results depend on the processing

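The number of genes past the threshold over the whole table depended strongly on the tool and the libraries: 30 in edgeR, 10 with total counts, 98 when a CPM of 1 was required in 2 libraries, 179 among abundant genes, 416 without a filter, 1661 with limma-voom, 8 with library weights, 2653 with DESeq2, and 0 to 3531 when 1 library was left out. The number of members past it was 0, against 1 without a filter (Atp6v1c1), 3 among abundant genes (Atp6v1c1, Atp6v1d and Man2b1), 4 with limma-voom, 8 with DESeq2 and 0 to 3 with 1 library left out. The pump median of -0.34 was -0.16 and the membrane protein median of -0.0079 was 0.18 with total counts. The median of the 3 transcription factors, -0.29, was 0.031 among abundant genes (where Mitf was not tested), -0.00201 with limma-voom and -0.016 with library weights, and ran from -0.46 to -0.041 with 1 library left out. With total counts the signs of Atp6v0d1 (0.026), Atp6v1g1 (0.022), Atp6v1h (0.16), Galns (0.00922), Ppt1 (0.040), Lamp1 (0.099) and Mcoln1 (0.055) turned, and among abundant genes those of Atp6v1h (0.064) and Lamp1 (0.00210). With 1 library left out, signs turned within these ranges: Atp6v0d2 -0.91 to 0.11, Atp6v1h -0.10 to 0.077, Naglu -0.48 to 0.11, Gm2a -0.017 to 0.65, Lamp1 -0.22 to 0.086, Scarb2 -0.17 to 0.40, Mcoln1 -0.37 to 0.19, Tfe3 -0.041 to 0.71, Mitf -0.96 to 1.02, and the log2 ratio of Atp6v0d2 to Atp6v0d1 -0.79 to 0.11. The cause was not tested. Of the other values of single members, 505 kept their sign and side of the threshold and 21 passed it. Replicate numbers are shared by 2 libraries of each group only, and the deviations of same-numbered libraries correlated at 0.041 and -0.003, so the numbers were not taken as pairs. With the replicate block 45 genes and 0 members passed, and the pump median was -0.42.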

Other observations

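Autophagy, which delivers the cell's own material to the lysosome, includes known TFEB targets, and its genes lay on both sides of 0. Of 29 tested genes none passed in edgeR, and the median was 0.10 (0.29 with total counts), beside 0.15 (0.34) for all tested genes. At an unadjusted p under 0.05, 6 were higher and 1 lower (all tested genes: 18.1% higher and 6.51% lower, abundant genes: 9.19% higher and 14.8% lower). The one on the lower side was Sqstm1, the receptor p62 that brings ubiquitin-tagged cargo to autophagosomes, at 1288 and 1095 CPM without and 513, 577 and 628 CPM with curcumol (-1.06 ± 0.17, edgeR adjusted p = 0.0637). Nbr1, a receptor of related build, lay on the other side at 36.8 and 22.3 against 64.5, 81.5 and 57.0 CPM (1.19 ± 0.29, edgeR adjusted p = 0.0752), as did Atg9a, the scramblase of the early autophagosome membrane, at 5.50 and 11.97 against 27.6, 25.0 and 28.1 CPM (1.62 ± 0.40).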
